A study of Mus musculus with 6 samples.

Results

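The interleukin 2 receptor has 3 chains, encoded in mouse by Il2ra, Il2rb and Il2rg, and their transcripts were followed in BCR-ABL transformed pro-B cells with intact or mutant Ikaros. The 3 genes were taken by symbol from 22099 genes, and each had 1 RefSeq transcript row. The members were chosen by their RPKM levels, since Il2ra was already known to differ between these groups, so the levels of the 3 chains are given as a description and without a test. The 6 libraries came from polyadenylated RNA of C57BL/6 cultures at day 14, 2 each from the ZnF4 mutant (homozygous for a mutation of Ikaros zinc finger 4), the ZnF1 mutant (homozygous for a mutation of zinc finger 1) and wild type (wt). All 6 cultures, wt included, began as whole bone marrow that received a retrovirus with the BCR-ABL p185 oncogene and YFP at day 0. The labels describe no sorting of the YFP+ cells, so RNA of other marrow cells can be present. They call the cells pro-B acute lymphoblastic leukaemia and the replicates biological, without saying which animals they came from.

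Interleukin 2 is a growth factor best known from T cells. The alpha chain, CD25, raises the affinity for interleukin 2 but has almost no cytoplasmic tail and does not signal by itself. The beta chain, CD122, and the common gamma chain, CD132, carry the signal through the kinases JAK1 and JAK3 to STAT5. The beta chain also serves the interleukin 15 receptor, and the gamma chain also serves the receptors for interleukins 4, 7, 9, 15 and 21. In mouse bone marrow, CD25 appears on B lineage cells at the pre-B stage, after the pre-B cell receptor has formed, when Kit has been lost, and it is used as a surface marker of that stage. Ikaros is a zinc finger transcription factor needed for lymphocyte development and a tumour suppressor in BCR-ABL leukaemia.

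All 6 libraries carried B lineage transcripts. They held 10582 to 11119 genes with at least 1 RPKM (reads scaled to transcript length and sequencing depth, the deposited unit), and 7 B lineage markers, among them Cd79a and Pax5, summed to 1938.2 to 3066.5 RPKM. Ikzf1, which encodes Ikaros, averaged 179 ± 12.7 RPKM in ZnF4 mutant cultures, 109 ± 10.7 in the ZnF1 mutant and 87.6 ± 2.33 in wt (SD, n = 2 each). A level summed over the gene does not show which zinc finger is mutated, so it does not check the labels. The number of reads behind each value is unknown. Values are written to 1 decimal, so a level of 0.1 or 0.2 RPKM is known only roughly.

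Il2ra, the alpha chain, separated the 3 groups. It stood at 0.3 and 0.2 RPKM in ZnF4 mutant cultures, at 26.6 and 24 RPKM in ZnF1 mutant cultures and at 7.1 and 8 RPKM in the wt libraries. Both ZnF1 mutant libraries were above both wt libraries, and both ZnF4 mutant libraries were close to 0. The group means were 0.25 ± 0.0707, 25.3 ± 1.84 and 7.55 ± 0.636 RPKM in the ZnF4 mutant, the ZnF1 mutant and wt (SD, n = 2 each). The order was therefore ZnF1 mutant, wt, ZnF4 mutant, and no neighbours in it overlapped. In RNA of a mixed culture, fewer cells of a type and less RNA per cell cannot be told apart.

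The mean of Il2ra was 3.35-fold higher in the ZnF1 mutant than in wt, and the ratio was 3.75 between the replicate 1 libraries and 3 between the replicate 2 libraries. It was 30.2-fold lower in the ZnF4 mutant than in wt, a ratio that lies between 25 and 38 once the rounding of the deposited values is allowed for. Between the mutants it was 101-fold lower in the ZnF4 mutant, with rounding limits of 84.2 and 127. On the log2(RPKM + 1) scale, which understates changes of low genes, the differences were 1.62 for ZnF1 mutant minus wt, −2.77 for ZnF4 mutant minus wt and −4.39 for ZnF4 mutant minus ZnF1 mutant, each with an SE of 0.16. Among the 11345 genes that passed the filter of at least 1 RPKM in at least 2 libraries, 46 had a larger positive difference in the first comparison. A more negative difference was found for 25 genes in the second comparison and for 2 in the third. The first and second comparisons share the wt libraries, so their values are not independent of each other.

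Il2rg, the common gamma chain, was an abundant transcript in every library. It stood at 81.3 and 54.1 RPKM in ZnF4 mutant cultures, at 133.1 and 82.5 RPKM in ZnF1 mutant cultures and at 98.8 and 69.4 RPKM in wt. The wt libraries overlapped both mutants, while the higher ZnF4 mutant library was just below the lower ZnF1 mutant library. Means were 67.7 ± 19.2, 108 ± 35.8 and 84.1 ± 20.8 RPKM (SD, n = 2 each) in the ZnF4 mutant, the ZnF1 mutant and wt. Each mutant differed from wt by less than its own SD, which includes the difference between replicate numbers described below. The log2 differences were 0.34 for ZnF1 mutant minus wt, −0.32 for ZnF4 mutant minus wt and −0.65 for ZnF4 mutant minus ZnF1 mutant, each with an SE of 0.34. Without ZnF1 mutant replicate 1, the first of these was −0.01.

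Il2rg also differed between the replicate numbers. Replicate 1 was above replicate 2 in all 3 groups, by 1.5-fold in the ZnF4 mutant, 1.61-fold in the ZnF1 mutant and 1.42-fold in wt. Of all tested genes, 44.3% also had the higher value in replicate 1 of every group. The log2 difference of replicate 1 minus replicate 2 was 0.5 to 0.68 for Il2rg, against a median of 0.06 to 0.12 over all tested genes. Within each replicate number the order of Il2rg was that of Il2ra, ZnF1 mutant above wt above ZnF4 mutant. This order within both numbers was shared by 11.5% of tested genes. The ZnF1 mutant to wt ratio of Il2rg was 1.35 in replicate 1 and 1.19 in replicate 2, and the ZnF4 mutant to wt ratio was 0.823 and 0.78.

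Il2rb, the beta chain, was at the floor of the measurement. It was listed at 0.1 and 0.5 RPKM in ZnF4 mutant cultures and at 0 in both ZnF1 mutant and both wt libraries. It did not pass the filter on low values and is in no fit. A value of 0 in a table rounded to 1 decimal can stand for any level under 0.05 RPKM, and no fold is given. The library with 0.5 RPKM, ZnF4 mutant replicate 2, also had the highest summed level of 8 natural killer cell markers, 8.2 RPKM against 1.4 in the other ZnF4 mutant library, 1.1 and 1.4 in ZnF1 mutant cultures and 4.3 and 0.6 in wt. Its granzyme B transcript Gzmb was at 5.5 RPKM and its perforin transcript Prf1 at 1 RPKM, while the natural killer receptor Ncr1 was listed at 0 in all 6 libraries. Not all markers of the list were high there, with Klrb1c at 0.1 RPKM, against 0.4 and 0.2 RPKM in ZnF1 mutant cultures, and Klrd1 at 0.2 RPKM, against 0.5 and 0.4 RPKM. The part of such cells in the Il2rb value was not tested.

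**Figure D1:**
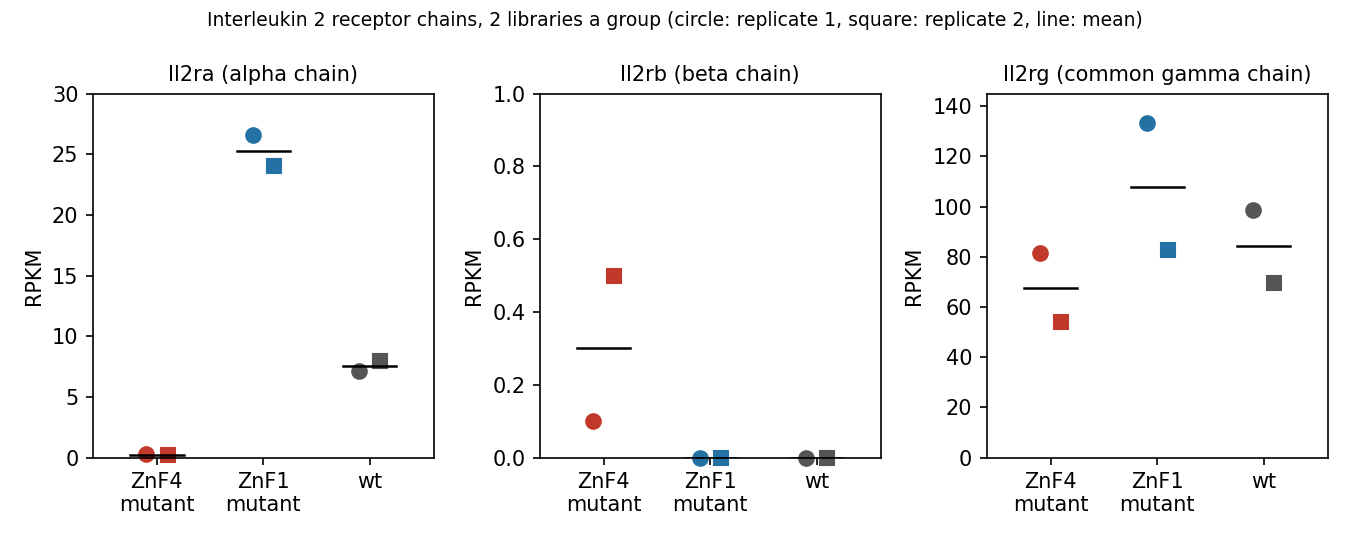
Level of each interleukin 2 receptor chain (vertical axis, RPKM, a separate scale for each gene) in the ZnF4 mutant, ZnF1 mutant and wt libraries, with replicate 1 as a circle, replicate 2 as a square and the group mean as a line. Il2ra separated the groups at 0.25, 25.3 and 7.55 RPKM, Il2rb did not exceed 0.5 RPKM, and Il2rg overlapped between wt and each mutant.

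Since RPKM is scaled to transcript length, the chains can be set against each other. Il2rg exceeded Il2ra in every library, by 271-fold and 270-fold in the ZnF4 mutant, where the low Il2ra values make the ratio approximate, by 5-fold and 3.44-fold in the ZnF1 mutant and by 13.9-fold and 8.68-fold in wt. Il2ra made up 0.367% and 0.365% of the summed RPKM of the 3 chains in the ZnF4 mutant, 16.7% and 22.5% in ZnF1 mutant cultures and 6.7% and 10.3% in wt. Among all genes listed above 0 in the same library, Il2ra was above 12.1% and 8.24% of them in the ZnF4 mutant, 77.2% and 77.4% in ZnF1 mutant cultures and 48.3% and 52% in wt. Il2rg was above 91% to 97.2% of them in all 6 libraries.

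Of the 3 chains, only Il2ra was without overlap between the ZnF1 mutant and wt, on the higher side, as were 18.3% of tested genes. Between the ZnF4 mutant and wt, Il2ra was lower without overlap (13.8% of tested genes were lower and 17.8% higher), and the untested Il2rb was nominally higher at its 0.1 and 0.5 RPKM. Between the ZnF4 and ZnF1 mutants, Il2ra and Il2rg were lower without overlap, and Il2rb was nominally higher, where 21.8% of tested genes were lower and 21.7% higher without overlap. An order with no overlap among all 3 groups, ZnF1 mutant above wt above ZnF4 mutant, was found for 3.9% of tested genes and for Il2ra among the chains. Il2ra was picked for these contrasts, so nothing is read from the shares.

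The 250 bases before the annotated starts of Il2ra and Il2rg, the 2 chains with clear transcripts, are shown because Ikaros binds DNA at sites built on the letters GGGAA. Both are from RefSeq on build GRCm38.p6, printed 5′ to 3′ on the strand of the gene, with each GGGAA in capitals. They were searched on both strands. Il2ra lies on chromosome 2 (chr2:11642542-11642791, plus strand) and Il2rg on the X chromosome (chrX:101268256-101268505, minus strand). Il2rb was not matched in the table used.
Il2ra: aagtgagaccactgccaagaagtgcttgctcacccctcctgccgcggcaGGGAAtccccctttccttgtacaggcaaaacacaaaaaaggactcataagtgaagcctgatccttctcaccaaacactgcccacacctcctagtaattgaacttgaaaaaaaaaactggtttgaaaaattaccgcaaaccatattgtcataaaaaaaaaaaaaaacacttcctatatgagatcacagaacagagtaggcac
Il2rg: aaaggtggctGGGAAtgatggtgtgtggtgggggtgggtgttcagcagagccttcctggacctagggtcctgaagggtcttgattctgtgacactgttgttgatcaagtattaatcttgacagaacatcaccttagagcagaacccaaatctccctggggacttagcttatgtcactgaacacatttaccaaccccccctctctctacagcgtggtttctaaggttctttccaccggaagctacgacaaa

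Each of the 2 windows held 1 GGGAA, beginning 201 bases before the start of Il2ra and 240 bases before that of Il2rg. Such a match was present in 56.2% of 32851 promoter windows of the same length. The longer TGGGAA was present for Il2rg and not in the Il2ra window, and in 21.6% of all windows. The GGGAA of Il2ra is part of a longer stretch, gggaatcccc, that matches the NF-kappaB pattern of GGG, any 5 bases and CC on both strands, with a further match on the minus strand 1 base along, a pattern found in 45.8% of windows and not in that of Il2rg. The STAT pattern TTCNNNGAA was in neither window and in 7.02% of all. A match is a description of the letters and not a binding site.

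The levels of Il2ra stood beside those of other genes that mark the passage from pro-B to pre-B cells. The comparison with wt covered 9 such genes, all of which passed the filter. In the ZnF4 mutant 2 of them rose and 2 fell (limma with Benjamini-Hochberg adjustment over all 11345 genes, threshold 0.05, with 2.72% of all genes called). In a fit blocked on replicate number 2 were higher and 3 lower, where 15.9% of all genes were called. Cd2, an adhesion receptor that in the mouse appears on pre-B cells, stood at 10.2 and 6 RPKM in ZnF4 mutant cultures, against 55.3 and 56.2 RPKM in wt, and fell by 2.68 (log2, SE 0.25, adjusted p = 0.014). Enpep, the aminopeptidase BP-1 of late pro-B and pre-B cells, stood at 7 and 6 RPKM in ZnF4 mutant cultures, against 136.7 and 144 RPKM in wt, and fell by 4.24 (SE 0.17, adjusted p = 0.0039).

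Kit, the receptor for stem cell factor that pre-B cells lose, rose by 3.64 (SE 0.18, adjusted p = 0.0049), with 16.2 and 15.4 RPKM in ZnF4 mutant cultures, against 0.4 and 0.3 RPKM in wt. Rag1, a subunit of the V(D)J recombinase, rose by 2.09 (SE 0.25, adjusted p = 0.023). Dntt, the terminal transferase of pro-B cells, was at 79.4 and 40.6 RPKM in ZnF4 mutant cultures and at 189.2 and 161.4 RPKM in wt and did not pass (−1.6, adjusted p = 0.14, but 0.0058 in the fit blocked on replicate number). The median difference over the 9 genes was 0.12, against 0.04 over all genes tested. Igll1 and Vpreb1, which form the surrogate light chain, Spn and Ms4a1 did not pass either.

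In the ZnF1 mutant 0 of these 9 genes passed against wt, where limma called 0 of all genes (0%), although 3 of the 9 and 1281 of all genes had an unadjusted p under 0.05. With the replicate block 2 were higher and 1 lower, where 13.2% of all genes were called, 1175 higher and 327 lower. Cd2 was at 65.6 and 75.1 RPKM in ZnF1 mutant cultures, slightly above its wt values (0.33, adjusted p = 0.96). Enpep was at 51.1 and 61.7 RPKM (−1.31, adjusted p = 0.092, or 0.0073 with the block), so it was lower than in wt while Il2ra was higher. Kit was at 1 and 1.6 RPKM (0.76, adjusted p = 0.17, or 0.036 with the block), and Rag1 differed by 2.08 (adjusted p = 0.092, or 0.0052 with the block). The median over the 9 genes was 0.1, against −0.01 over all genes.

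Directly between the mutants, Kit rose by 2.88 (SE 0.18, adjusted p = 0.0082) in the ZnF4 mutant, Enpep fell by 2.93 (SE 0.17, adjusted p = 0.0075) and Cd2 fell by 3.01 (SE 0.25, adjusted p = 0.012), where 5.37% of all genes were called. With the block 1 of the 9 genes was higher and 3 were lower, where 35.1% of all genes were called. Rag1 overlapped between the mutants, at 31.6 and 33.3 RPKM in ZnF4 mutant cultures and 29.2 and 35.9 RPKM in ZnF1 mutant cultures. Leaving out either ZnF4 mutant library ended all these calls of Kit, Enpep and Cd2 in both comparisons and of Rag1 against wt, with adjusted p up to 0.2. Cd2 and Rag1 against wt were also lost without wt replicate 1, wt replicate 2 or ZnF1 mutant replicate 1, Rag1 without ZnF1 mutant replicate 2 and Kit without wt replicate 2. The calls between the mutants were lost without either ZnF1 mutant library. Directions did not change in any of these fits, which have fewer residual degrees of freedom.

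**Figure D2:**
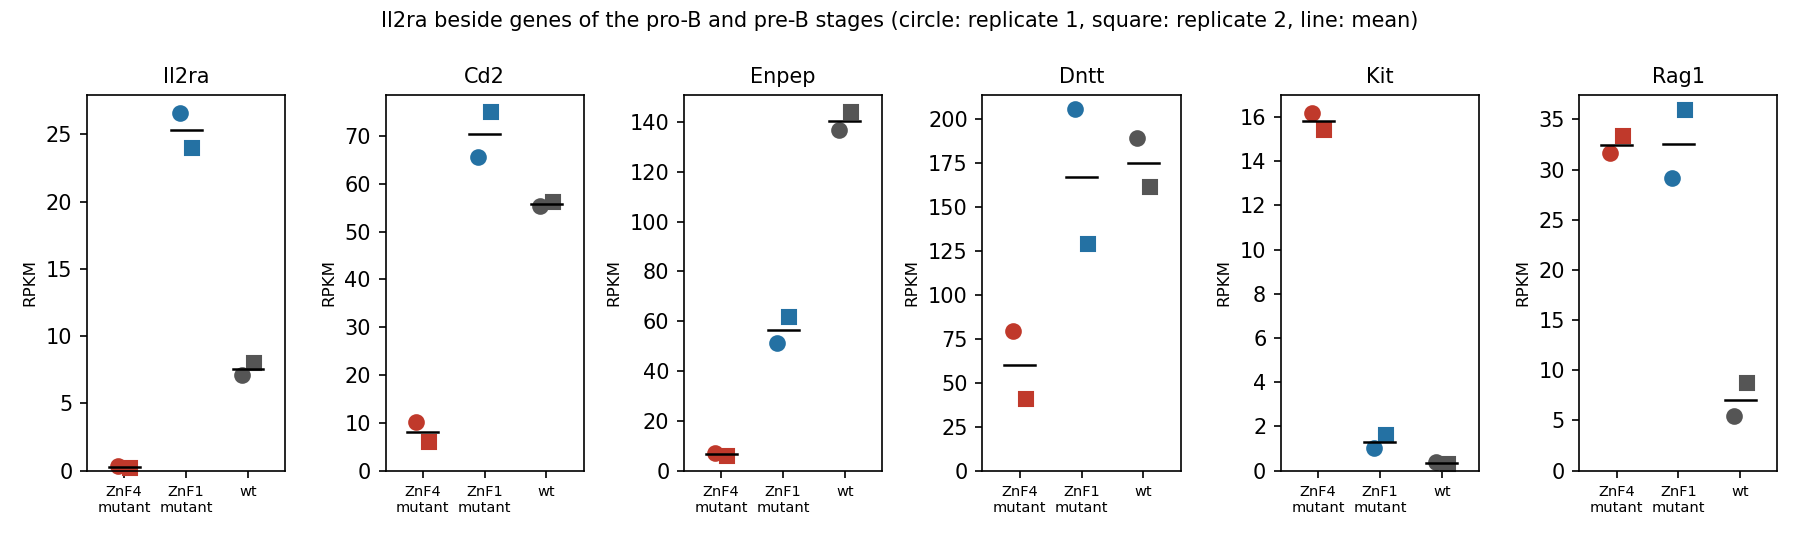
Level of Il2ra and of 5 genes of the pro-B and pre-B stages (vertical axes, RPKM, a separate scale for each gene) by group, with replicate 1 as a circle, replicate 2 as a square and the mean as a line. Il2ra and Cd2 were lowest in the ZnF4 mutant and highest in the ZnF1 mutant, Enpep was highest in wt, and Kit stood out in the ZnF4 mutant at 16.2 and 15.4 RPKM.

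The genes whose profile over the 6 libraries was nearest to that of Il2ra were Tnfsf8, Nov, Arl5c, Tnfrsf26 and Gpr171. Likeness was measured as the root mean square difference between profiles of log2(RPKM + 1) after centring each gene on its own mean, and it was 0.379, 0.439, 0.507, 0.549 and 0.586 in that order. Tnfsf8, the ligand of CD30, stood at 0.7 and 0.3 RPKM in ZnF4 mutant cultures, 21.8 and 24.5 RPKM in ZnF1 mutant cultures and 11.6 and 15.2 RPKM in wt. Nov, a secreted matricellular protein, stood at 1.5 and 3 RPKM in ZnF4 mutant cultures, 72.8 and 78.4 RPKM in ZnF1 mutant cultures and 39.2 and 36.5 RPKM in wt.

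Arl5c, a small GTPase of the ARF-like family, was at 12.6 and 7.3 RPKM in ZnF4 mutant cultures, 159.4 and 93.1 RPKM in ZnF1 mutant cultures and 82.9 and 68.1 RPKM in wt. All 5 neighbours had both ZnF4 mutant libraries below all other libraries. On the log2(RPKM + 1) scale the difference between the ZnF1 mutant and wt was smaller for each of them than for Il2ra, and for Gpr171, at 45.7 and 30.3 RPKM in ZnF1 mutant cultures and 32.3 and 30.3 RPKM in wt, the groups met. These genes were chosen for their likeness, so the values are a description. Il2rg and Il2rb varied too little between groups for such a ranking.

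**Figure D3:**
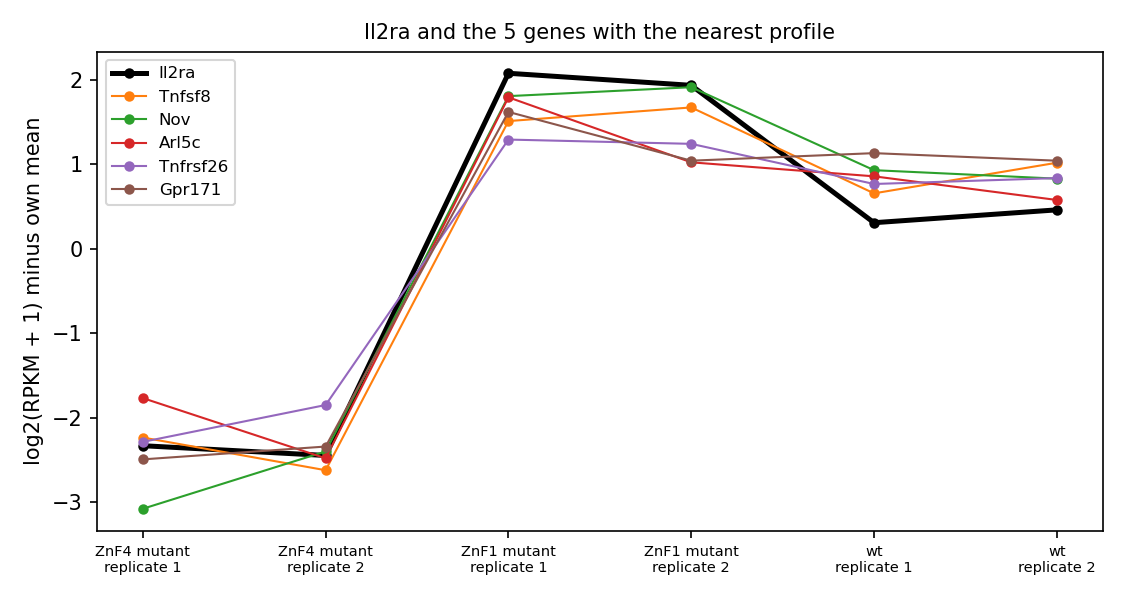
Profiles of Il2ra (thick black line) and of the 5 genes nearest to it over the 6 libraries (horizontal axis), as log2(RPKM + 1) minus the mean of each gene. All 6 lines are lowest in both ZnF4 mutant libraries, and Il2ra has the widest step between the ZnF1 mutant and wt.

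The ligands of the gamma chain receptors, and the related cytokine gene Tslp, were at the floor in every library. Il2, Il9 and Il21 were listed at 0 in all 6 libraries. Il4 and Tslp did not exceed 0.1 RPKM, Il7 reached 0.3 RPKM and Il15 0.6 RPKM, so 0 of these 7 genes passed the filter. The cytokines that the cells met in the culture medium are not part of the measurement.

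A list of 6 related receptor chains held the partners of the gamma chain and Crlf2, which pairs with the interleukin 7 receptor alpha chain instead, and 5 of the 6 passed the filter. For ZnF4 mutant minus ZnF1 mutant all 5 were negative, with a median of −0.8 against 0.04 over all genes, but 0 passed. With the replicate block 3 were lower there, where 35.1% of all genes were called. Against wt 1 was lower with the block in the ZnF4 mutant (15.9% of all genes called). In the ZnF1 mutant 2 were higher with it (13.2% called). Il7r, the interleukin 7 receptor alpha chain on which mouse B lymphopoiesis depends, stood at 21.1 and 20.3 RPKM in ZnF4 mutant cultures, 43.5 and 70.5 RPKM in ZnF1 mutant cultures and 15.3 and 21.3 RPKM in wt. Both ZnF1 mutant libraries were above all others, whereas the ZnF4 mutant lay within the range of wt. The difference was 1.56 (SE 0.28) for ZnF1 mutant minus wt and −1.38 for ZnF4 mutant minus ZnF1 mutant, and neither passed (adjusted p = 0.1 and 0.062, under the replicate block 0.011 and 0.0062). Il4ra, the interleukin 4 receptor alpha chain, was at 4 and 3.4 RPKM in ZnF4 mutant cultures, 9.5 and 7.6 RPKM in ZnF1 mutant cultures and 5.4 and 3.9 RPKM in wt. It differed by 0.76 for ZnF1 mutant minus wt (adjusted p = 0.22, or 0.012 with the block). For ZnF4 mutant minus ZnF1 mutant it differed by −1.02 (adjusted p = 0.062, or 0.0023 with the block).

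Il21r was at 7 and 5.2 RPKM in ZnF4 mutant cultures, 12.8 and 9.9 RPKM in ZnF1 mutant cultures and 10.4 and 7.9 RPKM in wt, the order seen for Il2ra and Il2rg. It did not pass against wt in either mutant (adjusted p = 0.53 in the ZnF4 mutant, or 0.011 with the block, and 1 in the ZnF1 mutant, or 0.067 with it). For ZnF4 mutant minus ZnF1 mutant Il21r differed by −0.8 (adjusted p = 0.14, or 0.0025 with the block). Il15ra, which resembles the alpha chain in structure and binds interleukin 15, lay at 9 to 13.1 RPKM over the 6 libraries. Il9r did not exceed 0.3 RPKM. Crlf2, which binds thymic stromal lymphopoietin, followed the replicate number, at 17.4 and 5 RPKM in ZnF4 mutant cultures, 18.4 and 6.7 RPKM in ZnF1 mutant cultures and 24.1 and 7 RPKM in wt.

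Of the 57 genes in the 6 lists of ligands, partner chains, kinases and STAT factors, adaptors, inhibitors and responsive genes, 48 passed the filter. In the ZnF4 mutant against wt 0 rose and 1 fell, with 18 above and 30 below 0 and a median difference of −0.12, while over all genes the median was 0.04 and 2.72% were called. With the replicate block 1 was higher and 13 were lower, where 15.9% of all genes were called, 910 higher and 899 lower. In the ZnF1 mutant against wt 0 passed, with 36 above and 12 below 0 and a median of 0.16, against −0.01 over all genes. There 7 of the 48 and 1281 of the 11345 genes had an unadjusted limma p under 0.05. With the block 10 of the 48 were called, all higher, where 13.2% of all genes were called, 1175 higher and 327 lower. In the ZnF4 against the ZnF1 mutant 0 rose and 4 fell, with a median of −0.34 against 0.04 over all genes and 5.37% of all genes called. With the block 2 were higher and 23 were lower, where 35.1% of all genes were called, 1803 higher and 2176 lower. Leaving out any 1 library left 0 of the 48 called in each comparison.

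The Janus kinases and STAT factors that act below the receptor were all transcribed. In the ZnF4 mutant all 10 had a negative difference from wt, with a median of −0.38, but 0 passed. Of the 10, 3 had an unadjusted limma p under 0.05, as had 1329 of the 11345 genes. With the block 5 were called lower, where 15.9% of all genes were called, 910 higher and 899 lower. Between the mutants 1 of the 10 fell, where 5.37% of all genes were called. With the block 8 were lower, where 35.1% of all genes were called, 1803 higher and 2176 lower. Jak3, which binds the gamma chain, was at 16.1 and 9 RPKM in ZnF4 mutant cultures, 29 and 16.7 RPKM in ZnF1 mutant cultures and 34.6 and 16.7 RPKM in wt (−0.94 for ZnF4 mutant minus wt, adjusted p = 0.61, or 0.0042 with the block). Stat5a was at 7.4 and 5.8 RPKM in ZnF4 mutant cultures, 12.4 and 8.8 RPKM in ZnF1 mutant cultures and 14.8 and 9.3 RPKM in wt (−0.76, adjusted p = 0.39, or 0.0096 with the block).

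Jak1, which binds the beta chain, lay at 63.3 to 79.2 RPKM over the 6 libraries. Stat4, a STAT factor of interleukin 12 signalling, fell in the ZnF4 against the ZnF1 mutant by 1.01 (SE 0.15, adjusted p = 0.03), at 25.7 and 28.1 RPKM in ZnF4 mutant cultures and 57.1 and 53.5 RPKM in ZnF1 mutant cultures. Its value in wt was 40.9 and 46.8 RPKM. In the ZnF1 mutant against wt, 7 of the 10 genes were above 0 with a median of 0.17, 0 passed and 0 had an unadjusted limma p under 0.05, while Stat6 alone was called with the block (13.2% of all genes). The 16 adaptors and downstream kinases had a median of 0.02 in the ZnF4 mutant and 0.01 in the ZnF1 mutant against wt, with 0 called in each and 0 and 1 with an unadjusted limma p under 0.05. With the block the catalytic subunit Pik3cd was lower in the ZnF4 mutant, where 15.9% of all genes were called. Pik3cd and Gab2 were then higher in the ZnF1 mutant, where 13.2% were called.

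Inhibitors of cytokine signalling differed widely among themselves. Socs1 was at 3.1 and 1.3 RPKM in ZnF4 mutant cultures, 51.8 and 10.9 RPKM in ZnF1 mutant cultures and 32.4 and 7.1 RPKM in wt. Both ZnF4 mutant libraries were below all others, although the replicates of each group differed several-fold, and the difference from wt of −2.42 did not pass (SE 0.95, adjusted p = 0.42, or 0.011 with the block). Socs3 was at 11.6 and 6.5 RPKM in ZnF4 mutant cultures, 67.8 and 36 RPKM in ZnF1 mutant cultures and 26.8 and 9.3 RPKM in wt, and differed by 1.58 for ZnF1 mutant minus wt (SE 0.58, adjusted p = 0.38, or 0.01 with the block). Cish, a STAT5 target, was at 60.4 and 30.2 RPKM in ZnF4 mutant cultures, 118 and 54.6 RPKM in ZnF1 mutant cultures and 98.2 and 40.4 RPKM in wt (−0.55 for ZnF4 mutant minus wt, adjusted p = 1, or 0.019 with the block). Socs2 overlapped between each mutant and wt. Ptpn6, the phosphatase SHP-1, was above wt in both mutants, at 137.8 and 102.8 RPKM in ZnF4 mutant cultures, 111.2 and 95.5 RPKM in ZnF1 mutant cultures and 76.8 and 63.5 RPKM in wt, and passed in neither (adjusted p = 0.21 and 0.43, under the block 0.0055 and 0.018). Of the 6 inhibitors 0 were called in any comparison, with 2 having an unadjusted limma p under 0.05 in each. With the block 1 was higher and 3 were lower in the ZnF4 mutant than in wt, where 15.9% of all genes were called. Against wt 2 were higher in the ZnF1 mutant (13.2% of all genes called), and 3 were lower in the ZnF4 than in the ZnF1 mutant (35.1% called).

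Of 11 tested genes known to respond to interleukin 2 or STAT5, 1 was called in the ZnF4 mutant against wt (2.72% of all genes). The median of the 11 was −0.22, and 3 had an unadjusted limma p under 0.05, as had 1329 of the 11345 genes. With the block 3 were lower, where 15.9% of all genes were called. Bcl2, which protects cells from apoptosis, was the gene called and fell. It was at 5.5 and 4.1 RPKM in ZnF4 mutant cultures, against 15.9 and 13.6 RPKM in wt (−1.45, SE 0.21, adjusted p = 0.037), and at 14 and 10.9 RPKM in ZnF1 mutant cultures. Pim1, a survival kinase, was at 70.7 and 47.9 RPKM in ZnF4 mutant cultures, 233.4 and 171.8 RPKM in ZnF1 mutant cultures and 162.4 and 105.6 RPKM in wt, so it had the order of Il2ra with no overlap. Neither mutant passed against wt (adjusted p = 0.2 in the ZnF4 mutant and 0.69 in the ZnF1 mutant, under the block 0.0017 and 0.014). It fell in the ZnF4 against the ZnF1 mutant by 1.77 (SE 0.32, adjusted p = 0.045). Lta, the cytokine lymphotoxin alpha, there fell by 2.87 (SE 0.52, adjusted p = 0.045), at 47.1 and 30.1 RPKM in ZnF4 mutant cultures, 440.3 and 179.3 RPKM in ZnF1 mutant cultures and 244 and 140.4 RPKM in wt. Against wt the ZnF4 mutant did not pass for Lta (−2.27, adjusted p = 0.12, or 0.002 with the block). Between the mutants Bcl2 fell by 1.21 (SE 0.21, adjusted p = 0.041). In that comparison 3 of the 11 genes fell, where 5.37% of all genes were called, and the median was −0.57. Of the 11, 7 had an unadjusted limma p under 0.05, as had 2195 of the 11345 genes. With the block 1 was higher and 7 were lower, where 1803 of all genes were called higher and 2176 lower. In the ZnF1 mutant against wt 0 of the 11 passed and 3 were higher with the block, where 13.2% of all genes were called.

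Bcl2l1, which encodes BCL-XL, had its highest values in the ZnF1 mutant, with 53.4 and 35 RPKM in ZnF4 mutant cultures, 88.7 and 77.1 RPKM in ZnF1 mutant cultures and 43 and 31.1 RPKM in wt (1.16 for ZnF1 mutant minus wt, adjusted p = 0.16, or 0.0076 with the block). Myc, a driver of growth, was at 290 and 234.5 RPKM in ZnF4 mutant cultures, 151 and 183.8 RPKM in ZnF1 mutant cultures and 217.4 and 166.7 RPKM in wt. It passed in no comparison, except that ZnF4 mutant minus ZnF1 mutant (0.64, adjusted p = 0.21) had an adjusted p of 0.044 under the block. Each of the calls of Bcl2, Pim1, Lta and Stat4 was lost whichever of the 6 libraries was omitted. The lowest adjusted p in those fits was 0.054 and the highest 0.26, with no change of direction.

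**Figure D4:**
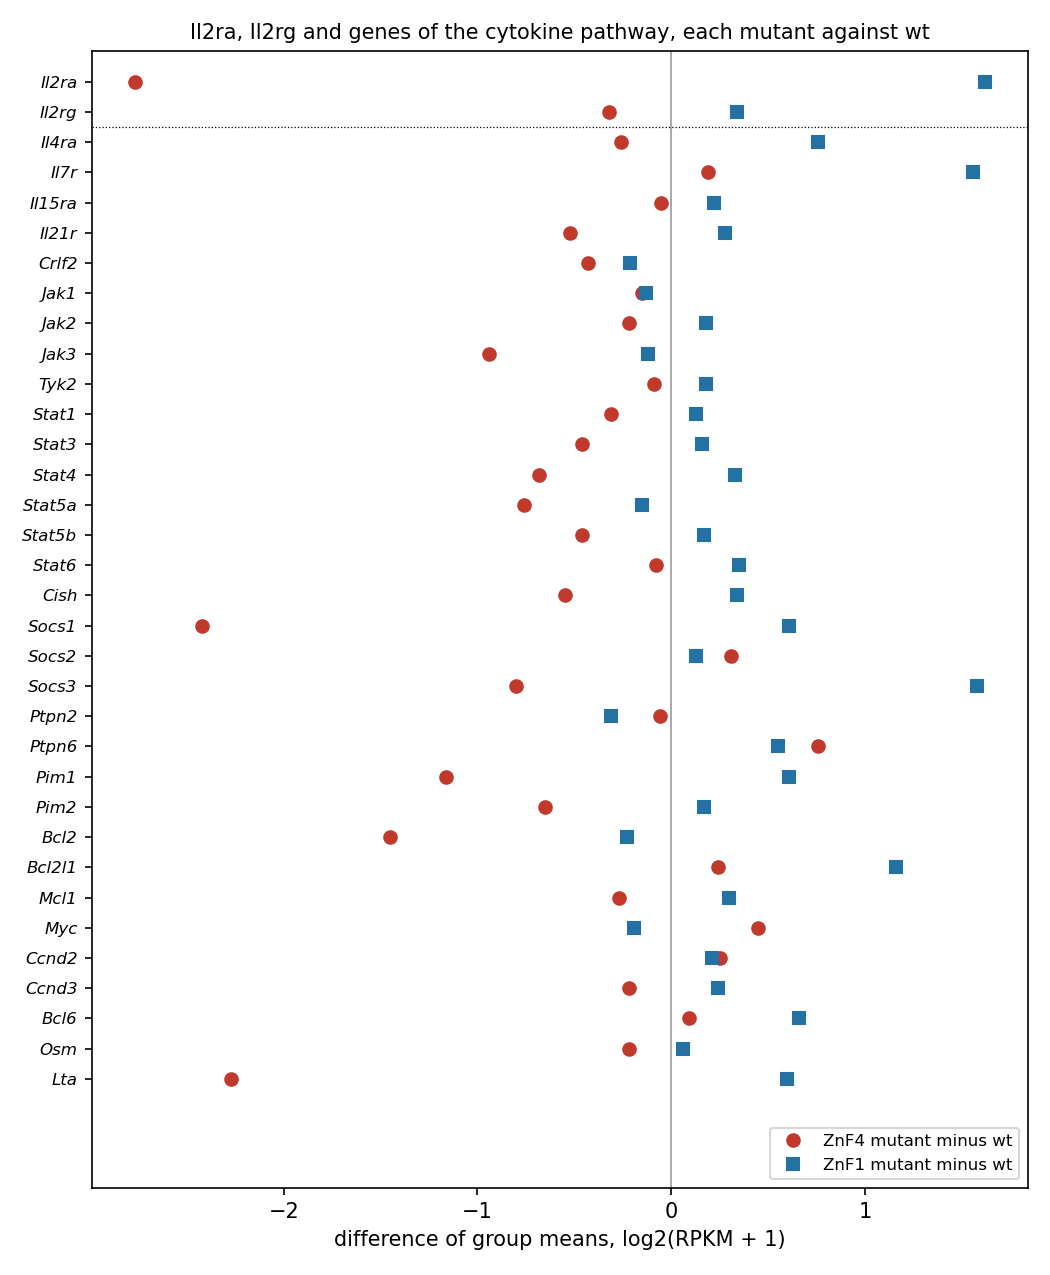
Difference of group means on the log2(RPKM + 1) scale (horizontal axis) for Il2ra, Il2rg and 32 tested genes of the pathway (rows, below the dotted line), as ZnF4 mutant minus wt (red circles) and ZnF1 mutant minus wt (blue squares), which share the wt libraries. Il2ra has the most distant pair of points, at −2.77 and 1.62, Socs1 and Lta lie at −2.42 and −2.27 in the ZnF4 mutant, and Il7r and Socs3 lie at 1.56 and 1.58 in the ZnF1 mutant.

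Transcription factors that bind Il2ra control regions in T cells were all detected. Of 10 listed genes, all passed the filter and 0 were called by limma in any comparison, with 2 having an unadjusted p under 0.05 in the ZnF4 mutant and 1 in the ZnF1 mutant against wt and 1 between the mutants. Ets1 was below wt in both mutants, at 51 and 43.2 RPKM in ZnF4 mutant cultures, 53.3 and 44.8 RPKM in ZnF1 mutant cultures and 84.6 and 74.5 RPKM in wt (adjusted p = 0.14 and 0.19, under the block 0.0036 and 0.008). Between the mutants it differed by −0.06 (SE 0.18, adjusted p = 0.93). The part of these factors in the Il2ra levels was not tested. Under the block Elf1 was also lower in the ZnF4 mutant than in wt, where 15.9% of all genes were called. Rel and Runx1 were then lower in the ZnF4 than in the ZnF1 mutant, where 35.1% were called. Of the NF-kappaB genes Nfkb1, Rel and Rela, Rela overlapped in every comparison. Rel was at 9.3 and 9.1 RPKM in ZnF4 mutant cultures, 12.1 and 15.4 RPKM in ZnF1 mutant cultures and 11.5 and 13.3 RPKM in wt. It was lower without overlap in the ZnF4 mutant than in wt (13.8% of tested genes) and the ZnF1 mutant (21.8%). Its adjusted p was 0.54 against wt and 0.2 against the ZnF1 mutant, under the block 0.07 and 0.019. Nfkb1 overlapped between the ZnF1 mutant and wt, at 45.3 and 42.4 RPKM and at 44.1 and 39.3 RPKM. It was higher without overlap in the ZnF4 mutant, at 49.9 and 45.4 RPKM. Of tested genes, 17.8% were higher without overlap in the ZnF4 mutant than in wt and 21.7% than in the ZnF1 mutant. Foxp3, the factor of regulatory T cells, was at 2.6 to 3.9 RPKM in all 6 libraries.

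Il2ra is also a gene of activated and regulatory T cells, and transcripts of other cells were present in these cultures. The 12 T cell markers did not move together: 3 were higher and 3 lower in the ZnF1 mutant than in wt without overlap, where 18.3% of tested genes were higher and 12.7% lower. They summed to 10.1 and 6.5 RPKM in ZnF4 mutant cultures, 11.5 and 8.5 RPKM in ZnF1 mutant cultures and 31.6 and 16.4 RPKM in wt. Of these, 4 were listed at 0 in all libraries, among them the T cell receptor components Cd3e and Cd3g, and 8 were under 1 RPKM in all. In wt most of the sum came from Lat, at 26.2 and 12.1 RPKM. Cd4, the coreceptor of helper T cells, had the order of Il2ra without overlap, listed at 0 in both ZnF4 mutant libraries and at 1.7 and 2 RPKM in ZnF1 mutant cultures and 0.1 and 0.1 RPKM in wt. It passed between the mutants (adjusted p = 0.012) and not in the ZnF1 mutant against wt (adjusted p = 0.092, or 0.0076 with the block). The call was lost without either ZnF4 mutant library, and without either ZnF1 mutant library Cd4 did not reach the filter. Cd4 thus entered the fit only through the group where it was high, so nothing is read from its call. Tcf7, a transcription factor of T cells, was at 3.9 and 2.3 RPKM in ZnF4 mutant cultures, 5.5 and 4.1 RPKM in ZnF1 mutant cultures and 2.2 and 1.5 RPKM in wt (adjusted p = 0.2 for ZnF1 mutant minus wt, or 0.0085 with the block). The part of T cells in the Il2ra values was not tested. The 4 regulatory T cell markers summed to 11.2 and 10 RPKM in ZnF4 mutant cultures, 16.9 and 10.3 RPKM in ZnF1 mutant cultures and 10.9 and 8.6 RPKM in wt, mostly from Tnfrsf18.

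Macrophage markers moved with Il2ra in the ZnF1 mutant. All 9 were higher there without overlap with wt, where 18.3% of tested genes were, and their sum was 812.7 and 882.7 RPKM in ZnF1 mutant cultures, against 269.3 and 332.3 RPKM in wt. The sum in the ZnF4 mutant was 291.6 and 311.9 RPKM, within the range of wt, while its Il2ra was at 0.3 and 0.2 RPKM. Singly, 3 of the 9 were higher and 1 lower in the ZnF4 mutant than in wt without overlap. All 9 were lower without overlap in the ZnF4 than in the ZnF1 mutant, as were 21.8% of tested genes. All 7 stromal and endothelial markers were also higher in the ZnF1 mutant than in wt without overlap, with sums of 29.9 and 20.7 RPKM in ZnF4 mutant cultures, 161.8 and 59.7 RPKM in ZnF1 mutant cultures and 35.8 and 30.7 RPKM in wt. Cdh5 was at the floor in that comparison, at 0.1 and 0.1 RPKM against 0 and 0 RPKM in wt. It was highest in the ZnF4 mutant, at 2.1 and 1.3 RPKM. Against wt, 2 of the 7 were higher and 2 lower in the ZnF4 mutant without overlap, where 17.8% of tested genes were higher and 13.8% lower. The part of these cells in the higher Il2ra of the ZnF1 mutant was not tested.

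Granulocyte markers varied within groups. The 7 genes summed to 5.9 and 51.4 RPKM in ZnF4 mutant cultures, 1.7 and 1530.4 RPKM in ZnF1 mutant cultures and 502.8 and 0.5 RPKM in wt. Il2ra was at 26.6 and 24 RPKM in the same ZnF1 mutant libraries and at 7.1 and 8 RPKM in the same wt libraries. The part of granulocytes in the Il2ra values was not tested. Without wt replicate 1 and ZnF1 mutant replicate 2, the libraries with most granulocyte transcripts, 0 of the 48 pathway genes were called in any comparison, with 0 of all genes called in that smaller fit and 765 to 1246 of all genes at an unadjusted limma p under 0.05. Sums of the other marker lists were 0.4 to 23.6 RPKM for mast cells and basophils, 1.1 to 7.5 RPKM for dendritic cells and 0.3 to 13.5 RPKM for erythroid cells.

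**Figure D5:**
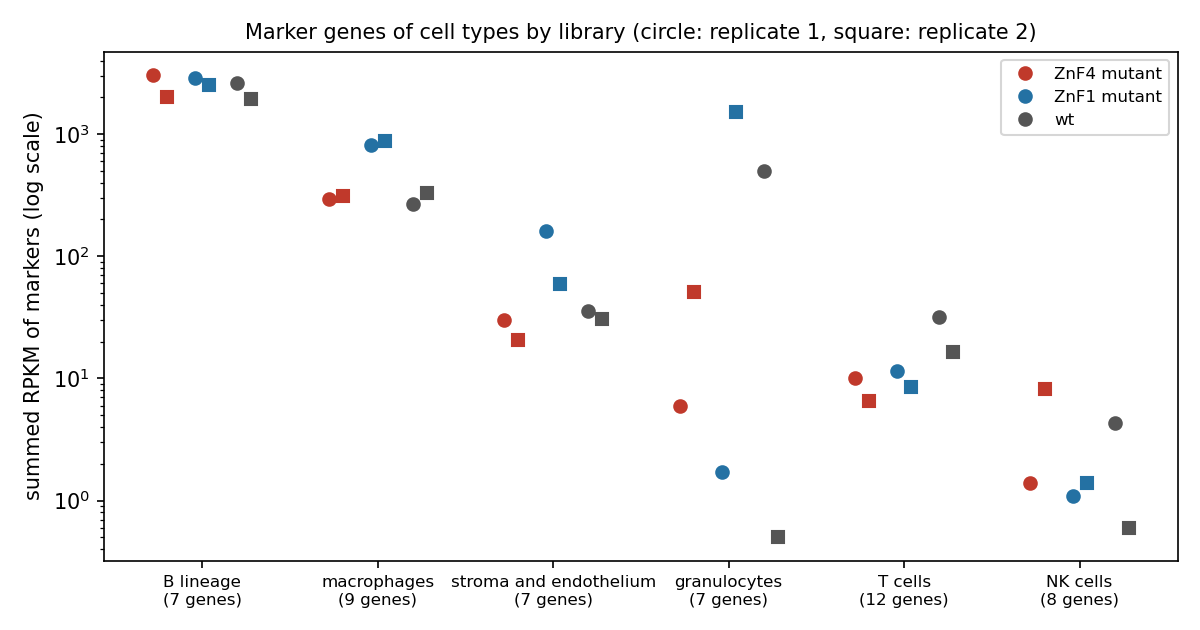
Summed RPKM of marker genes (vertical axis, log scale) for 6 cell types in the ZnF4 mutant (red), ZnF1 mutant (blue) and wt (grey), with replicate 1 as a circle and replicate 2 as a square. The summed B lineage markers overlap between groups, and the sums of macrophage and of stromal markers are highest in the ZnF1 mutant. Granulocyte sums range from 0.5 to 1530.4 RPKM within groups.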

How the data were processed

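Per the file headers, the deposited values are RPKM of RefSeq transcripts, and the transcript length in the same table is given in bases. Build mm9, bedtools and TopHat are named in the submitters' processing notes. The treatment of shared reads and of strand is not given in the sources used. The 26531 rows were summed to 22099 symbols; 1 row had no gene, and 39 of 40 symbols turned into numbers were restored by accession. All listed genes were found. 1 B lineage marker is not reported here and is left out of the sum.

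Group tests used limma 3.58.1 (R 4.3.3) on log2(RPKM + 1) with a trended prior variance, all 6 libraries in 1 fit of 3 group means, two-sided, Benjamini-Hochberg adjusted over 11345 genes that reached 1 RPKM in 2 or more libraries, threshold 0.05 (3 residual and 2.32 prior degrees of freedom). The fit was tested on simulated data with independent noise in each library, which leaves out shifts shared by libraries of the same number. P-values measure the spread between 2 libraries a group. Across genes, how far libraries with the same number lay from their group's mean correlated at 0.754 (ZnF4 mutant and wt), 0.5 (ZnF1 mutant and wt) and 0.715 (both mutants), so the numbers were taken to pair libraries. A fit blocked on them is given as counts for most list comparisons and as adjusted p for many of the genes described. Each gene call given without a block value was also made with the block, in the same comparison and direction. The members and gene lists were chosen with earlier results of these data known. Genes named are the members, listed genes and the 5 nearest profiles of a member whose group means span at least 1 log2 unit. Reference sequences are on GRCm38.p6, so no position was carried over from mm9.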

Additional observations from a re-analysis of the deposited data

How the results depend on the processing

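The direction of each Il2ra difference was kept in all alternatives run. With a pseudocount of 0.1 the Il2ra differences were 1.73 (ZnF1 mutant minus wt), −4.46 (ZnF4 mutant minus wt) and −6.19 (ZnF4 mutant minus ZnF1 mutant), and Il2rb differed by 1.79 in the ZnF4 mutant from each other group, since the pseudocount sets the size of changes near 0. Leaving out single libraries gave 1.54 to 1.7, −2.85 to −2.7 and −4.47 to −4.32 for Il2ra, 0 to 0, 0.14 to 0.58 and 0.14 to 0.58 for Il2rb, and −0.01 to 0.68, −0.6 to −0.03 and −0.99 to −0.31 for Il2rg. The reversal of Il2rg for ZnF1 mutant minus wt came without ZnF1 mutant replicate 1 (−0.006).

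The genes called in the ZnF4 mutant against wt numbered 309, or 1809 with the replicate block, 176 at 5 RPKM or more and 131 in a fit of the 4 libraries compared. Between the mutants they numbered 609, or 3979 with the block, 323 at 5 RPKM or more and 324 in the 4 libraries, and in the ZnF1 mutant against wt 0, or 1502 with the block. Leaving out single libraries gave 0 to 119, 0 to 306 and 0 to 0. Pathway genes called in the same order were 1, 4 and 0, or 14, 25 and 10 with the block, which pairs libraries by number. They were 0 and 2 with no filter on low values, 2 between the mutants at 5 RPKM or more, and 0 in the 4 libraries compared, without any single library (0 to 0) and, an alternative chosen after seeing the data, without the libraries with most granulocyte transcripts, where all genes called were also 0 in each comparison. Cish, at −0.55 for ZnF4 mutant minus wt, reversed to 0.08 without wt replicate 1 and in that last fit, and was −1.18 without wt replicate 2. Within each replicate number Cish was lower in the ZnF4 mutant than in wt, at 60.4 against 98.2 RPKM and at 30.2 against 40.4 RPKM. The cause of these shifts was not tested. The smaller fits have fewer residual degrees of freedom, which bears on the calls and not on the differences of means. Depth is unknown, so Il2rb and the ligands can be described only as near the floor.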
